A study of Mus musculus with 5 samples.

Results

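The 6 genes described here, Tbx21, Eomes, Id2, Runx3, Prdm1 and Zeb2, encode transcription factors and a transcriptional inhibitor that steer CD8+ T cells between effector and memory fates. They were chosen by name, as 6 of the 13911 genes in the deposited table of all time points, and all 6 had values in that table.

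Tbx21 encodes T-bet and Eomes encodes eomesodermin, related T-box factors that drive the cytotoxic programme and the production of interferon gamma. Id2 binds E proteins such as the product of Tcf3 and keeps them off DNA, Runx3 works with its partner Cbfb to set up the cytotoxic lineage, and Prdm1 encodes BLIMP1, a repressor that promotes terminal effector differentiation. Zeb2 is a zinc-finger repressor known to act downstream of T-bet in terminal effector cells. High T-bet, Id2, BLIMP1 and Zeb2 are textbook features of short-lived effector cells, whereas eomesodermin is linked to both effector and memory cells.

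The samples were mouse OT-I CD8+ T cells, which carry a transgenic T cell receptor for the ovalbumin peptide SIINFEKL (strain C57BL/6-Tg(TcraTcrb)1100Mjb/J), taken from spleen and lymph nodes. They were enriched by FACS at 0 h, or at 24 h and 72 h of co-culture with dendritic cells (DCs) pulsed with the peptide. The co-cultures held DCs together with myeloid-derived suppressor cells (called "with MDSCs" below) or DCs without them ("with DCs"), and all groups share the same transgenic receptor. Single-cell RNA libraries were made on the 10X Genomics droplet platform, 1 per group, holding 2952 cells at 0 h, 2247 at 24 h with MDSCs, 1562 at 24 h with DCs, 4942 at 72 h with MDSCs and 1926 at 72 h with DCs. Each group has a single library, so differences could not be checked against replicates or tested, and a ratio compares those libraries only. The labels do not say how many mice or cultures stand behind a library, or where the DCs and MDSCs came from.

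The deposited values are whole numbers adjusted towards a common total per cell (13061 to 15988), so the number of molecules per cell is unknown, and they are called adjusted counts here. A level is a gene's summed adjusted counts per 1000000 of its library (CPM), and a gene was called higher or lower at 1.5-fold or more when it had 10 CPM or more in either library. Some members reached that minimum only in the library where they were higher, so the minimum had a part in their calls: this holds for Tbx21 and Eomes at 24 h with DCs against 0 h and at 72 h against 24 h with MDSCs, for Eomes at 72 h against 24 h with DCs, and for Tbx21 between the co-cultures at 72 h. Cells had a median of 2210 genes above 0 at 0 h, 3621 at 24 h with MDSCs, 3583.5 at 24 h with DCs, 3111 at 72 h with MDSCs and 3217 at 72 h with DCs. All cells had 2 or more of the 6 T cell markers (Cd3e, Cd3d, Cd3g, Cd8a, Cd8b1, Lck) above 0. Cells holding at least 2 markers of another cell type made up 1.86% at 0 h, 4.49% at 24 h with MDSCs, 3.78% at 24 h with DCs, 2.06% at 72 h with MDSCs and 8.62% at 72 h with DCs. Cst3, listed as a marker of dendritic cells, was above 0 in 98.1% of cells at 0 h and 64.7% at 24 h with DCs. These shares are therefore not counts of cells of another type. Library pairs shared 7 to 18 cell barcodes. The 0 h library stood apart in the scale of its values: of the 45 cells with Tbx21 above 0, 3 had a value of 1 and 29 a value of 2, whereas 1 was the most frequent value above 0 for Tbx21 in each other library. Ratios and shares set against 0 h therefore carry a bias of unknown size. No set of cells known to lack these genes was at hand, so the share of cells that free RNA gives was not measured.

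Across the 5 libraries the 6 genes showed 3 kinds of profile. Tbx21 and Eomes had their highest levels at 24 h, Id2, Runx3 and Prdm1 at 72 h with DCs, and Zeb2 at 0 h and 24 h. At 24 h no member differed by 1.5-fold between cells with MDSCs and cells with DCs. At 72 h Id2, Runx3 and Tbx21 were all lower with MDSCs than with DCs.

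**Figure D1:**
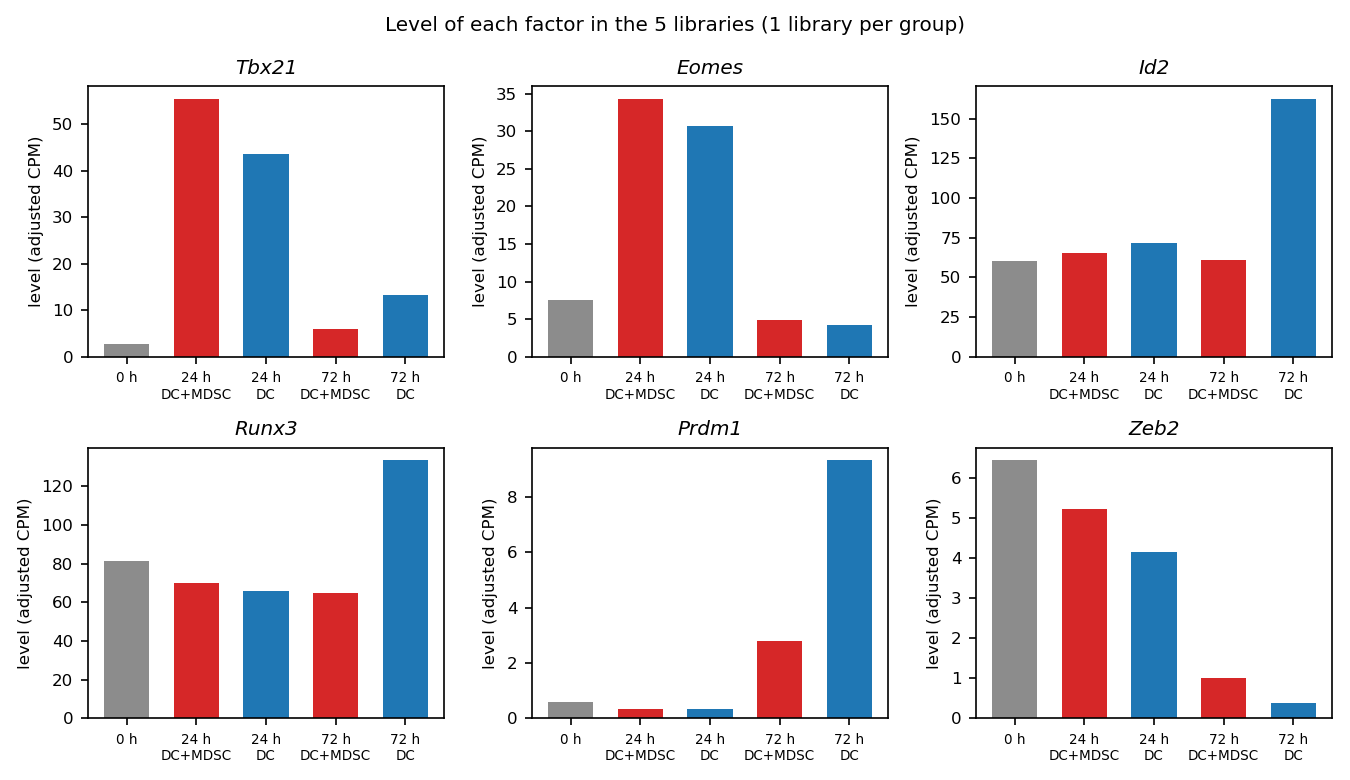
Level of each gene in adjusted CPM (bars from 0) in the 5 libraries, 1 bar per library, red with MDSCs, blue with DCs, grey at 0 h. Tbx21 and Eomes are tallest at 24 h, and Id2 reaches 162 CPM and Runx3 133 CPM at 72 h with DCs.

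Among the T-box factors, Tbx21 (GRCm38, chr11:97098071-97115331, minus strand) was at 2.81 CPM at 0 h, 55.5 CPM at 24 h with MDSCs, 43.7 CPM at 24 h with DCs, 5.89 CPM at 72 h with MDSCs and 13.2 CPM at 72 h with DCs. Both 24 h libraries were high, the 72 h libraries were lower, and 0 h was lowest. Cells with Tbx21 above 0 made up 1.52% at 0 h, 49.5% at 24 h with MDSCs, 43.3% at 24 h with DCs, 8.42% at 72 h with MDSCs and 17.5% at 72 h with DCs. In the order of levels, the 24 h libraries were less than 1.5-fold apart and every other pair of neighbours was further apart.

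Eomes (chr9:118478212-118486132, plus strand) was at 7.50 CPM at 0 h, 34.3 CPM at 24 h with MDSCs, 30.7 CPM at 24 h with DCs, 4.94 CPM at 72 h with MDSCs and 4.25 CPM at 72 h with DCs. The 24 h libraries again stood above the other libraries, and by 72 h both co-cultures were below the 0 h level. Of the 149 cells with Eomes at 0 h, 121 had a value of 2, so the scale of that library bears on this order. The shares of cells did not follow it. Eomes was above 0 in 5.05% of cells at 0 h, 27.5% at 24 h with MDSCs, 23.7% at 24 h with DCs, 6.48% at 72 h with MDSCs and 5.30% at 72 h with DCs. Neighbours at 24 h and neighbours at 72 h were less than 1.5-fold apart.

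Id2 (chr12:25093799-25097140, minus strand) was at 60.5 CPM at 0 h, 65.6 CPM at 24 h with MDSCs, 71.5 CPM at 24 h with DCs, 61.0 CPM at 72 h with MDSCs and 162 CPM at 72 h with DCs. The library of 72 h with DCs stood alone, and the other libraries were less than 1.5-fold apart from their neighbours in the order. Id2 was above 0 in 25.8% of cells at 0 h, 45.0% at 24 h with MDSCs, 44.9% at 24 h with DCs, 50.7% at 72 h with MDSCs and 76.5% at 72 h with DCs.

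Runx3 (chr4:135120652-135177990, plus strand) had the same kind of profile, with 81.1 CPM at 0 h, 69.8 CPM at 24 h with MDSCs, 65.6 CPM at 24 h with DCs, 64.8 CPM at 72 h with MDSCs and 133 CPM at 72 h with DCs. It was above 0 in 57.3% of cells at 0 h, 62.4% at 24 h with MDSCs, 58.6% at 24 h with DCs, 58.0% at 72 h with MDSCs and 81.8% at 72 h with DCs. As for Id2, the library of 72 h with DCs was the only 1 of the 5 more than 1.5-fold from its neighbour in the order of levels.

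Prdm1 (chr10:44437177-44528501, minus strand) stayed under 10 CPM in every library and so was never called. It was at 0.58 CPM at 0 h, 0.35 CPM at 24 h with MDSCs, 0.33 CPM at 24 h with DCs, 2.80 CPM at 72 h with MDSCs and 9.33 CPM at 72 h with DCs. Cells with the transcript numbered 12 at 0 h, 12 at 24 h with MDSCs, 8 at 24 h with DCs, 203 at 72 h with MDSCs and 238 at 72 h with DCs, so nearly all Prdm1 was seen at 72 h.

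Zeb2 (chr2:44983632-45117395, minus strand) also stayed under 10 CPM throughout. It was at 6.43 CPM at 0 h, 5.22 CPM at 24 h with MDSCs, 4.16 CPM at 24 h with DCs, 1.01 CPM at 72 h with MDSCs and 0.38 CPM at 72 h with DCs. Levels at 0 h and 24 h hid different distributions: at 0 h 51 cells (1.73%) held it at a mean adjusted count of 5.22, whereas 161 cells (7.17%) at 24 h with MDSCs held a mean of 1.12 and 81 cells (5.19%) at 24 h with DCs a mean of 1.25. At 72 h, 71 cells with MDSCs and 9 cells with DCs had Zeb2 above 0. The antisense gene Zeb2os overlaps Zeb2 and was itself at 0.29 CPM or less in each library, and whether the counting used strand is not given in the labels.

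**Figure D2:**
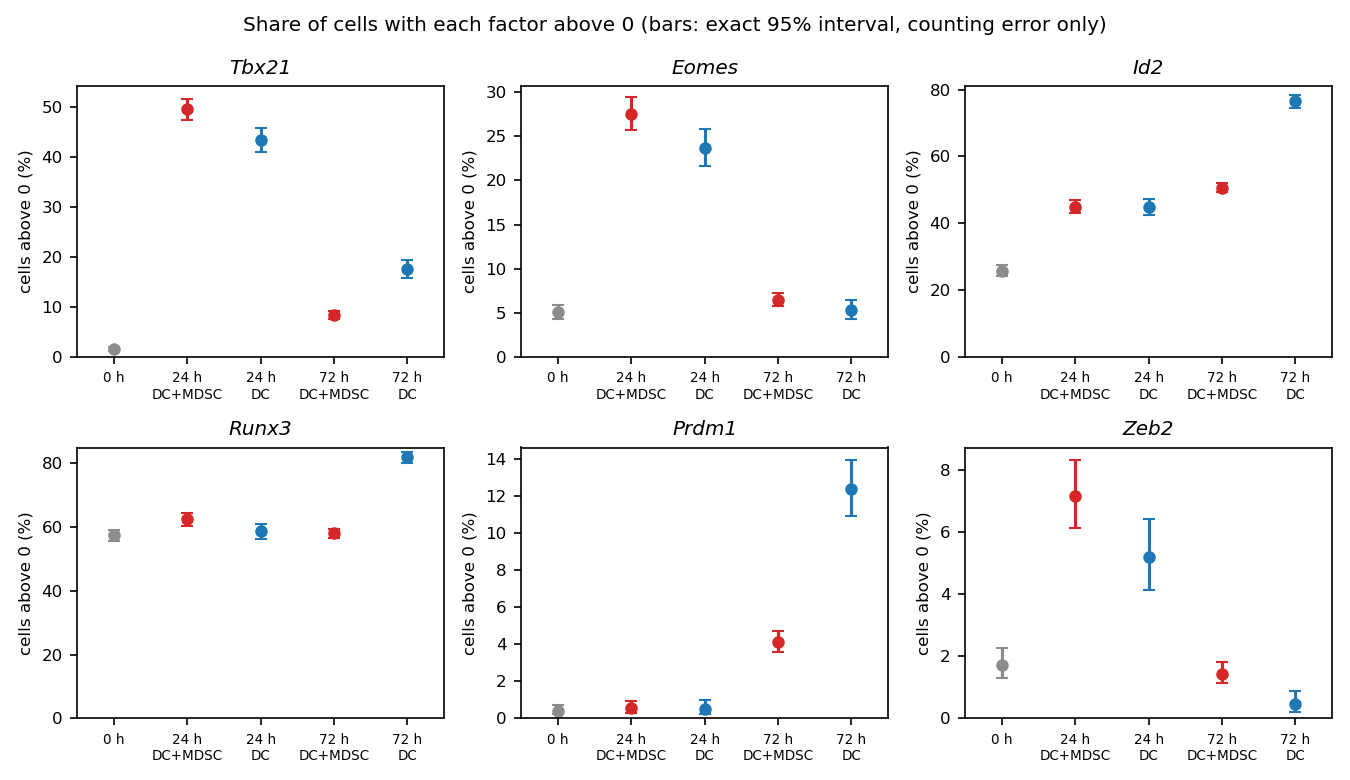
Percent of cells with each gene above 0 (points) in the 5 libraries, with exact (Clopper-Pearson) 95% intervals that cover counting error only. At 72 h Id2, Runx3, Tbx21 and Prdm1 sit lower with MDSCs than with DCs, and Zeb2 sits higher.

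The comparison of 24 h with DCs against 0 h addresses peptide stimulation without suppressor cells. Tbx21 was 15.6-fold higher at 24 h with DCs than at 0 h (log2 ratio 3.96), and Eomes 4.09-fold higher (log2 ratio 2.03). Id2 had 71.5 CPM at 24 h with DCs and 60.5 CPM at 0 h (log2 ratio 0.24), and Runx3 had 65.6 CPM and 81.1 CPM (log2 ratio -0.31), both within 1.5-fold. Thus 2 of the 4 members at 10 CPM or more were called higher and 0 lower, where 55.0% of the 7006 genes tested were called higher and 15.4% lower (70.3% in all). The members' count is close to that background, and the median log2 ratio of all genes tested was 0.74. Of those genes, 3.41% had a ratio as large as that of Tbx21 in either direction, and 18.8% one as large as that of Eomes.

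Among receptors and factors known to induce these genes, 21 were measured, of which 13 were higher at 24 h with DCs and 3 lower (median log2 ratio 0.88). Irf4, which couples receptor strength to effector differentiation, was at 103 CPM at 24 h with DCs and 0.15 CPM at 0 h, and Il12rb1, a chain of the interleukin 12 receptor, at 40.1 and 1.96 CPM. Of 12 measured genes of the naive and memory side, 1 was higher and 9 were lower (median log2 ratio -2.01), among them Klf2, which keeps naive T cells circulating, at 20.5 CPM at 24 h with DCs and 947 CPM at 0 h. Among 16 measured effector genes, 8 were higher and 8 lower. Of 9 measured partners and antagonists, 2 were higher and 2 lower: Bach2, a repressor of effector genes, was at 55.5 CPM at 24 h with DCs and 18.1 CPM at 0 h, and Ets1 at 54.0 and 224 CPM. Other lineage and state factors had 9 of 14 higher and 4 lower, and Batf3 was at 32.4 CPM at 24 h with DCs and listed at 0 at 0 h.

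The comparison of the co-cultures at 24 h asks whether MDSCs had altered the genes by then. None of the 4 measured members was called in either direction, where 3.29% of the 6726 genes tested were called, 2.14% higher and 1.14% lower. Tbx21 had a log2 ratio of 0.34 (55.5 CPM with MDSCs, 43.7 CPM with DCs), Eomes 0.16, Runx3 0.09 and Id2 -0.13. The shares of cells with Tbx21 were 49.5% (95% interval 47.4 to 51.6%) with MDSCs and 43.3% (40.9 to 45.8%) with DCs. For Eomes they were 27.5% (25.7 to 29.4%) with MDSCs and 23.7% (21.6 to 25.9%) with DCs. The counting intervals of Tbx21 did not overlap and those of Eomes did. With this many cells the intervals of 29.2% of the genes tested did not overlap, 18.9% higher with MDSCs and 10.2% lower, so nothing is read from that of Tbx21, which was within 1.5-fold.

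For Runx3 the order of the 24 h libraries depended on which deposited table was read. In the table of all time points 62.4% of cells with MDSCs and 58.6% with DCs had Runx3, and in the table of 24 h alone 65.7% with MDSCs and 70.8% with DCs. The table of 24 h had Id2 in 47.0% of cells with MDSCs and 51.9% with DCs, where the table of all time points had 45.0% and 44.9%. Tbx21 was above 0 in 49.5% with MDSCs and 43.4% with DCs in the table of 24 h, and Eomes in 27.5% and 23.7%.

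Of the genes that the members are known to bind or control, 3 of 12 measured effector genes were higher with MDSCs at 24 h and 0 lower, although the median log2 ratio of the list was -0.24. Ifng was at 283 CPM with MDSCs and 123 CPM with DCs, and Gzmb, encoding granzyme B, at 1987 and 1118 CPM. On the naive and memory side 0 of 10 were higher and 3 lower (median log2 ratio -0.16), Ccr7 being at 298 CPM with MDSCs and 513 CPM with DCs. None of 8 partners was called. Of 21 upstream genes 1 was called, the interferon gamma receptor chain Ifngr2, lower at 9.57 CPM with MDSCs against 20.4 CPM with DCs. Of 12 other factors, Batf3 was higher, at 66.1 CPM with MDSCs and 32.4 CPM with DCs, and Ikzf2 was lower, at 15 and 23.9 CPM.

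**Figure D3:**
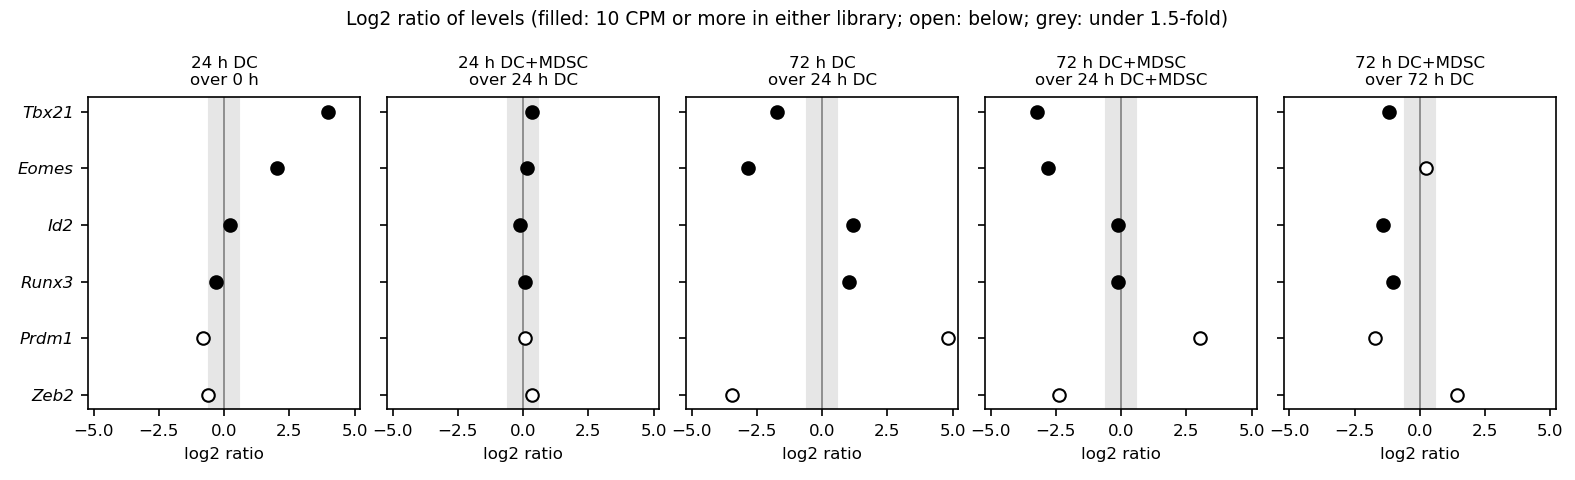
Log2 ratio of the level of each gene in the 5 comparisons named above the panels. Filled points had 10 CPM or more in either library, open points did not, and the grey band marks ratios under 1.5-fold, which hold all 4 filled points of the 24 h comparison of co-cultures and none of the 3 at 72 h.

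Between 24 h and 72 h without suppressor cells the T-box factors and the Id2 and Runx3 pair ran in opposite directions. Tbx21 was at 13.2 CPM at 72 h with DCs and 43.7 CPM at 24 h with DCs (log2 ratio -1.72), and Eomes at 4.25 and 30.7 CPM (log2 ratio -2.85). Id2 was at 162 CPM at 72 h with DCs and 71.5 CPM at 24 h with DCs (log2 ratio 1.18), and Runx3 at 133 and 65.6 CPM (log2 ratio 1.02). So 2 of 4 measured members were higher and 2 lower, where 23.1% of the 7336 genes tested were higher and 34.8% lower (57.8% in all, median log2 ratio -0.23). Prdm1, under the minimum, was at 9.33 CPM at 72 h with DCs and 0.33 CPM at 24 h with DCs, the latter from 8 cells. Of genes at the minimum 0.90% had as large a ratio, but Prdm1 is not of that set, so its rank is not read.

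With MDSCs the same interval gave the T-box decrease without the Id2 and Runx3 increase. Tbx21 was at 5.89 CPM at 72 h with MDSCs and 55.5 CPM at 24 h with MDSCs (log2 ratio -3.24), and Eomes at 4.94 and 34.3 CPM (log2 ratio -2.79). Id2 was at 61.0 CPM at 72 h with MDSCs and 65.6 CPM at 24 h with MDSCs (log2 ratio -0.10), and Runx3 at 64.8 and 69.8 CPM (log2 ratio -0.11). Here 2 of 4 measured members were lower and 0 higher, where 42.0% of the 7125 genes tested were lower and 16.9% higher (58.9% in all, median log2 ratio -0.41). The members' count is close to that background, and most genes tested were, like Id2 and Runx3, not called higher. The time courses with MDSCs and with DCs have no library in common.

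Among the known inducers, Irf4 and Stat5a had the largest decreases from 24 h to 72 h in both co-cultures. Irf4 was at 19.2 CPM at 72 h with MDSCs and 87.2 CPM at 24 h with MDSCs, and at 21.7 CPM at 72 h with DCs and 103 CPM at 24 h with DCs. Stat5a, a signal transducer of interleukin 2, was at 14.5 CPM at 72 h and 74.0 CPM at 24 h with MDSCs, and at 19.1 CPM at 72 h and 83.6 CPM at 24 h with DCs. The upstream list as a whole had 1 higher and 8 lower of 21 with MDSCs (median log2 ratio -0.41), and 7 higher and 5 lower of 22 with DCs (median 0.08). Of all genes tested, 16.9% were higher and 42.0% lower with MDSCs, and 23.1% higher and 34.8% lower with DCs. Decreases therefore do not set this list apart. Ifngr1, a receptor chain for interferon gamma, was higher at 72 h in both, at 161 CPM against 24.9 CPM with MDSCs and 229 CPM against 25.8 CPM with DCs. Partners had 0 higher and 4 lower of 8 with MDSCs and 1 higher and 2 lower of 8 with DCs, Bach2 and Id3 being the lowest by ratio in both.

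The effector genes split over the same interval, with 5 higher and 6 lower of 14 with MDSCs and 7 higher and 5 lower of 14 with DCs. Klrd1, a chain of an inhibitory receptor for class I molecules, was at 39.9 CPM at 72 h with MDSCs and 6.81 CPM at 24 h with MDSCs, and at 76.7 CPM at 72 h with DCs and 6.67 CPM at 24 h with DCs. The naive and memory side had 4 higher and 4 lower of 12 with MDSCs and 6 higher and 5 lower of 13 with DCs. The other factors had 3 higher and 6 lower of 13 with MDSCs and 5 higher and 6 lower of 16 with DCs. Nfil3 was at 17.3 CPM at 72 h with MDSCs and 6.00 CPM at 24 h with MDSCs, and at 57.3 CPM at 72 h with DCs and 3.99 CPM at 24 h with DCs.

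At 72 h the co-cultures were set against each other to ask what MDSCs did to the members. Id2 was at 61.0 CPM with MDSCs and 162 CPM with DCs (log2 ratio -1.41), Runx3 at 64.8 and 133 CPM (log2 ratio -1.04) and Tbx21 at 5.89 and 13.2 CPM (log2 ratio -1.17). All 3 members at the minimum were lower with MDSCs, where 14.8% of the 6697 genes tested were lower and 8.3% higher (23.1% in all), and the median log2 ratio of all genes was -0.07. Ratios as large in either direction were found for 3.30% of genes in the case of Id2, 5.36% for Tbx21 and 7.0% for Runx3. Prdm1, under the minimum, was at 2.80 CPM with MDSCs and 9.33 CPM with DCs (log2 ratio -1.74). Eomes was at 4.94 and 4.25 CPM (log2 ratio 0.22), and Zeb2 at 1.01 and 0.38 CPM (log2 ratio 1.42), resting on 9 cells with DCs.

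For Id2, Runx3, Tbx21 and Prdm1 the shares of cells ran the same way. Id2 was detected above 0 in 50.7% of cells with MDSCs (95% interval 49.3 to 52.1%) and 76.5% with DCs (74.5 to 78.4%), and Runx3 in 58.0% with MDSCs (56.6 to 59.3%) and 81.8% with DCs (80.0 to 83.5%). Tbx21 was above 0 in 8.42% with MDSCs (7.66 to 9.23%) and 17.5% with DCs (15.8 to 19.3%), and Prdm1 in 4.11% with MDSCs (3.57 to 4.70%) and 12.4% with DCs (10.9 to 13.9%). Zeb2 ran the other way, above 0 in 1.44% with MDSCs (1.12 to 1.81%) and 0.47% with DCs (0.21 to 0.89%). The intervals of these 5 genes did not overlap between the co-cultures, whereas those of Eomes did. Of the genes tested at the minimum, 64.4% had intervals that did not overlap, 28.7% higher with MDSCs and 35.8% lower, so a lack of overlap was common at these cell numbers and does not set the members apart.

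Cells that had the transcript also held less of it with MDSCs. The mean adjusted count in cells above 0 was 1.83 with MDSCs and 3.21 with DCs for Id2, and 1.70 with MDSCs and 2.47 with DCs for Runx3. Cells with an adjusted Id2 count of 6 or more made up 1.07% with MDSCs and 9.97% with DCs. Of the cells with Tbx21 above 0, 94.2% with MDSCs and 86.9% with DCs had a count of 1, and of those with Prdm1, 96.6% with MDSCs and 86.1% with DCs. At levels as low as those of Tbx21 and Prdm1, nearly every cell above 0 has a count of 1. Fewer cells with the transcript and less transcript per cell could therefore not be told apart for these genes.

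**Figure D4:**
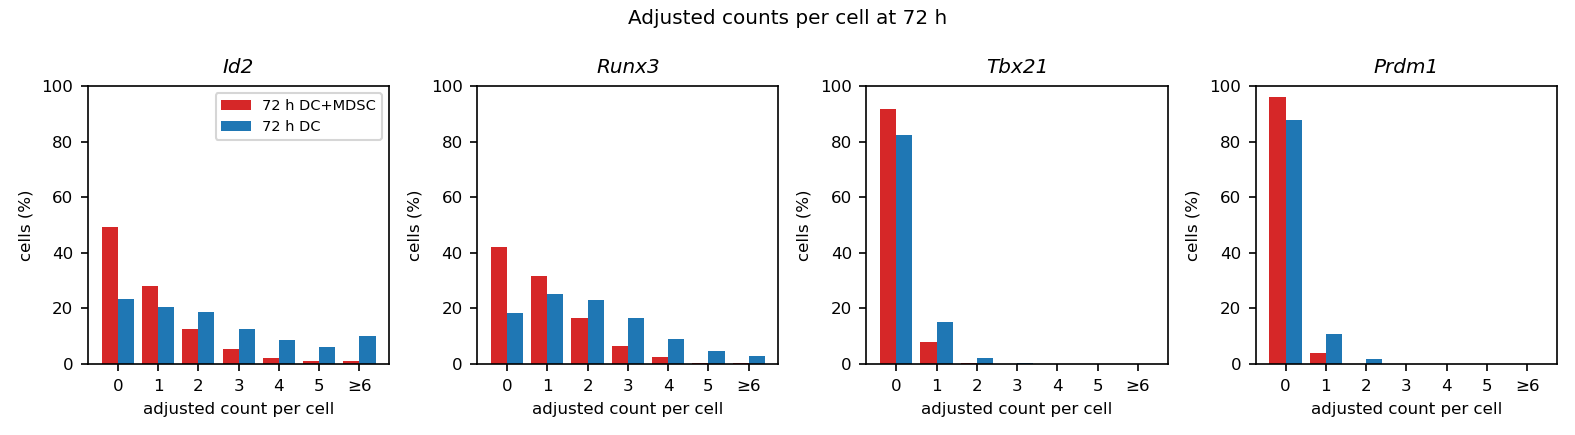
Percent of cells at each adjusted count (0 to 6 or more) of Id2, Runx3, Tbx21 and Prdm1 at 72 h, red with MDSCs and blue with DCs. Cells with Id2 at 0 make up 49.3% with MDSCs and 23.5% with DCs, and cells with Runx3 at 0 make up 42.0% with MDSCs and 18.2% with DCs.

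The 72 h ratios were negative in cells with and in cells without Mki67, and larger in size in cells with it. Among cells with the proliferation marker Mki67 above 0 the log2 ratio of cells with MDSCs over cells with DCs was -1.48 for Id2, -1.10 for Runx3, -1.22 for Tbx21 and -1.83 for Prdm1, and among cells with Mki67 at 0 it was -1.19, -0.98, -1.06 and -1.49. In each of 3 bands of cells by the number of genes above 0 the ratios also stayed negative, from -1.31 to -1.44 for Id2, from -0.99 to -1.16 for Runx3, from -1.12 to -1.21 for Tbx21 and from -1.59 to -1.95 for Prdm1. Of the 11 markers of dendritic cells on the list 6 were in the table and none of these was at 0 in either library. Cells with 2 or more of them made up 1.44% with MDSCs and 8.10% with DCs, but the markers did not move as a set. Their summed level was 155 CPM with MDSCs and 154 CPM with DCs, of which Cst3 made up 154 CPM and 147 CPM. Fscn1 was at 0.59 CPM with MDSCs and 6.93 CPM with DCs, and was found in 0.83% and 8.88% of cells. Ccl17 was at 0.11 and 0.24 CPM and Ccl22 at 0.013 and 0.034 CPM, whereas Zbtb46, at 0.39 CPM with MDSCs and 0.10 CPM with DCs, and Itgax, at 0.053 and 0.034 CPM, ran the other way. Without cells holding 2 or more markers of another type the log2 ratios were -1.42 for Id2, -1.04 for Runx3, -1.19 for Tbx21 and -1.68 for Prdm1. The part of proliferation, of the number of genes above 0 or of other cell types in these ratios was not tested.

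The promoters of the 3 members called lower at 72 h with MDSCs are shown, for Runx3 at both of its starts in RefSeq. These genes shared the direction of that comparison but not their course over time. Each run is the 250 bases before the RefSeq start (build GRCm38.p6), read 5′ to 3′ on the strand of the gene, with capitals marking matches to TGTGGT (RUNX) or CAGGTG (an E-box bound by ZEB and E proteins) on either strand.
Id2, chr12:25096093-25096342, minus strand: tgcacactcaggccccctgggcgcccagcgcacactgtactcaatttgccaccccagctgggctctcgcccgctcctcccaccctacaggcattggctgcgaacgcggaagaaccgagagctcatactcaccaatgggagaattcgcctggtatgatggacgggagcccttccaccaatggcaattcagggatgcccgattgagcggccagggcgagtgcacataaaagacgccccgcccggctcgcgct
Runx3, upstream start, chr4:135120395-135120644, plus strand: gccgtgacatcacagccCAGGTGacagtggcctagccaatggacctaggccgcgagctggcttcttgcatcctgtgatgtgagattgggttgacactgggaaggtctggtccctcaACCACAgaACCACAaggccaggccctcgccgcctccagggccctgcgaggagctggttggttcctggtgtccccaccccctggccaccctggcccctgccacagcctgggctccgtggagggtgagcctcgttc
Runx3, downstream start, chr4:135152295-135152544, plus strand: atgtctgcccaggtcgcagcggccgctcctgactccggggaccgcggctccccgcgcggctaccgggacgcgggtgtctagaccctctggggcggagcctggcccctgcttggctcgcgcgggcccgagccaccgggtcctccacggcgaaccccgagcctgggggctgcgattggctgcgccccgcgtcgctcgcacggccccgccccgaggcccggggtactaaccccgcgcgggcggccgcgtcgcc
Tbx21, chr11:97115332-97115581, minus strand: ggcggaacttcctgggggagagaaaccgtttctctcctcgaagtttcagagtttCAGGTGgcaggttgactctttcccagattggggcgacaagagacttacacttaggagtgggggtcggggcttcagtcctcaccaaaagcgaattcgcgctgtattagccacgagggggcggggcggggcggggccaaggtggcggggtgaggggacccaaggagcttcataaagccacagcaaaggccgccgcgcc

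The window of the upstream Runx3 start held the RUNX letters in reverse orientation at -134 and -126 from the start and an E-box at -233. The Tbx21 window held an E-box at -196. Neither the Id2 window nor that of the downstream Runx3 start held a match to TGTGGT, to GGTGTG (core of the T-box site), to CAGGTG or to GAAAGT (core of the BLIMP1 site). RefSeq gives 10 starts for the 6 genes, 4 of them for Zeb2, and the windows of 2 Zeb2 starts share 224 bases, so matches were counted by position. The E-box letters were found at 3 positions, counting Prdm1 at -87, and the RUNX letters at 2, both in Runx3. GGTGTG was found at 2 positions and GAAAGT at 1, all in Zeb2. Among all 32851 mouse promoters of this length, 17.2% held CAGGTG, 14.0% TGTGGT, 16.3% GGTGTG and 12.3% GAAAGT, counting both strands. The matches describe letters in the sequence and are not evidence of binding.

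The other genes of the pathway were counted in the same comparison at 72 h. Of 8 measured partners and antagonists 0 were higher and 4 lower (median log2 ratio -0.59), including Cbfb, which stabilises RUNX proteins on DNA, at 27.9 CPM with MDSCs and 44.6 CPM with DCs, and Tcf3, the E protein gene that Id2 opposes, at 35.1 and 55.5 CPM. Of 22 upstream genes 0 were higher and 9 lower (median -0.45), including Il2rb, a receptor chain for interleukins 2 and 15, at 58.8 CPM with MDSCs and 159 CPM with DCs, and Junb at 125 and 301 CPM. Of 10 effector genes 0 were higher and 6 lower (median -0.67): the chemokine gene Ccl5 was at 11.9 CPM with MDSCs and 67.4 CPM with DCs, and Slamf7 at 28.6 and 81.1 CPM. Gzmb was within 1.5-fold, at 2592 CPM with MDSCs and 1796 CPM with DCs.

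On the naive and memory side 1 of 13 was higher with MDSCs and 4 were lower (median log2 ratio -0.12). Klf2 was at 22.7 CPM with MDSCs and 140 CPM with DCs, Ccr7 at 114 and 277 CPM, and Il7r, the receptor chain for interleukin 7, was the gene called higher, at 64.1 and 41.4 CPM. Of 13 other factors 1 was higher and 7 lower (median -0.77). Bhlhe40 was at 19.8 CPM with MDSCs and 89.3 CPM with DCs, Rora at 5.54 and 21.9 CPM, and Batf3 was the factor called higher, at 83.3 and 42.0 CPM.

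Within a library the members were combined in many ways. Cells with none of the 6 genes above 0 made up 32.0% at 0 h, 8.10% at 24 h with MDSCs, 9.92% at 24 h with DCs, 18.4% at 72 h with MDSCs and 3.69% at 72 h with DCs. Cells with 3 members made up 2.34% at 0 h, 22.5% at 24 h with MDSCs, 20.2% at 24 h with DCs, 6.76% at 72 h with MDSCs and 18.4% at 72 h with DCs, and no cell of any library had all 6. At 72 h the most frequent combination was Id2 with Runx3 and no other member, in 23.8% of cells with MDSCs and 42.3% with DCs.

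Co-expression was measured as the odds ratio that a cell had both members above 0, for the pairs expected to share 10 cells or more. Those were 7 of the 15 pairs at 0 h, 10 at 24 h with MDSCs, 10 at 24 h with DCs, 12 at 72 h with MDSCs and 10 at 72 h with DCs. The odds ratio was above 1 for 5 of them at 0 h, 7 at 24 h with MDSCs, 7 at 24 h with DCs, 8 at 72 h with MDSCs and 9 at 72 h with DCs. Because a cell with more genes above 0 is more likely to have any given gene above 0, the ratios were also taken within 3 bands of that number, and no p-value is given because cells of 1 library are not replicates. Within bands the count above 1 was 8 at 72 h with DCs and was as before in the other libraries. After stimulation the ratios lay between 0.55 and 1.74, and between 0.55 and 1.55 within bands, and none of these weak relations is taken as a finding on its own.

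**Figure D5:**
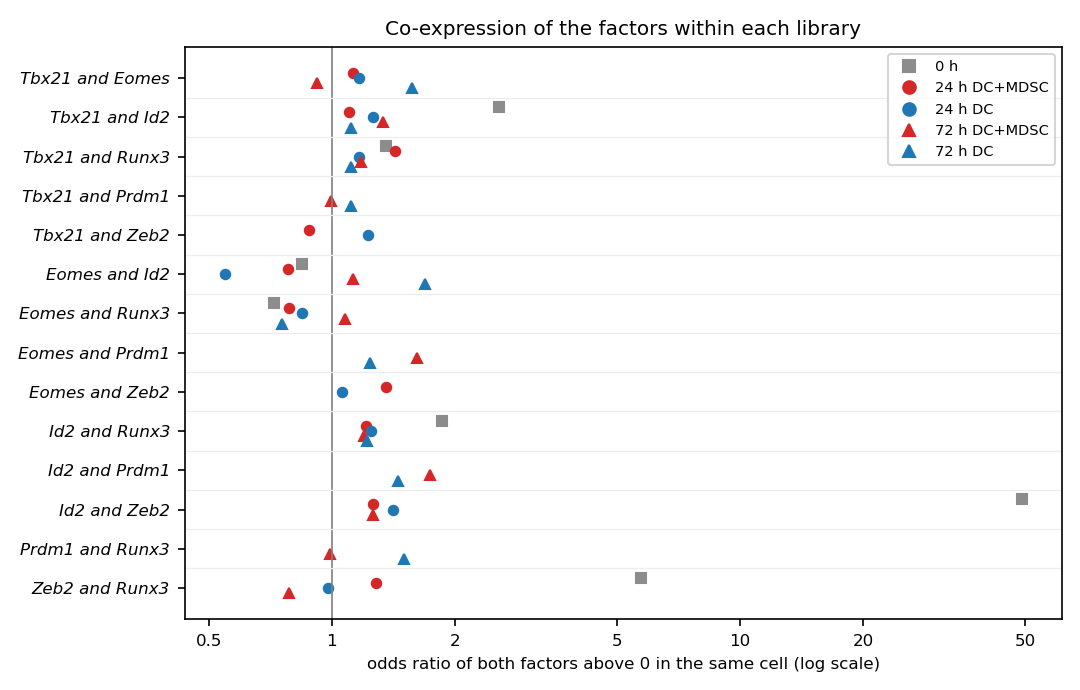
Odds ratio (log scale) of both genes of a pair above 0 in the same cell, for pairs expected to share 10 cells or more, with 1 point per library (squares 0 h, circles 24 h, triangles 72 h; red with MDSCs, blue with DCs). Id2 and Zeb2 at 0 h reach 49.1, while pairs after stimulation lie between 0.55 and 1.74.

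The lowest odds ratio after stimulation was that of Eomes and Id2 at 24 h with DCs. There 33.8% of cells with Eomes and 48.3% of cells without it had Id2 (0.55, also within bands, and 0.44 at adjusted counts of 2 or more). At 24 h with MDSCs 40.5% of cells with Eomes and 46.7% of cells without it had Id2 (odds ratio 0.78, and 0.80 within bands), but the ratio was 1.04 at counts of 2 or more, so its direction depended on that threshold. At 72 h the same pair was at 1.13 with MDSCs and at 1.69 with DCs. With MDSCs it was at 0.63 at counts of 2 or more, where 8.76 cells were expected to share it. Eomes and Runx3 at 72 h with DCs were at 0.75. Tbx21 and Eomes, the T-box pair, were close to independent at 24 h: 28.8% of cells with Tbx21 and 26.4% of cells without it had Eomes with MDSCs, and 25.3% and 22.5% with DCs. Their odds ratios were 1.13 with MDSCs and 1.16 with DCs, and 0.79 and 0.99 at counts of 2 or more. Id2 and Prdm1 at 72 h had an odds ratio of 1.74 with MDSCs and 1.45 with DCs, 1.55 and 1.24 within bands. At counts of 2 or more this pair was at 0.57 with MDSCs, where 1.57 cells were expected to share it, and 1.82 with DCs.

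Cells with Eomes at 24 h had more Gzmb and less Il2 than cells without it. Gzmb was at 2925 CPM in cells with Eomes and 1633 CPM in cells without it with MDSCs, and at 2152 and 799 CPM with DCs, while Il2, encoding interleukin 2, was at 150 and 433 CPM with MDSCs and 185 and 878 CPM with DCs. Ly6c2, a surface protein of activated and memory CD8+ T cells, was higher in cells with Eomes in all 5 libraries, with log2 ratios of 1.79 at 0 h, 1.76 at 24 h with MDSCs, 2.07 at 24 h with DCs, 1.30 at 72 h with MDSCs and 2.65 at 72 h with DCs. The numbers of genes above 0 were similar, with medians of 3533 in cells with Eomes and 3642 in cells without it at 24 h with MDSCs, and 3629 and 3573 with DCs. At 24 h with MDSCs Eomes was above 0 in 22.3% of cells with Mki67 (95% interval 19.8 to 24.9%) and 32.0% of cells without it (29.4 to 34.8%). At 24 h with DCs these shares were 21.2% (16.7 to 26.3%) and 24.3% (21.9 to 26.7%). Cells with Mki67 numbered 1033 with MDSCs and 297 with DCs, and the intervals cover counting error only. No share of all genes was taken for this split, so nothing is read from whether the intervals overlap.

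Cells with and without Tbx21 at 24 h differed in few of the 29 genes fixed for this comparison. Of 25 at the minimum, 0 were higher and 3 lower in cells with Tbx21 with MDSCs, and 1 higher and 4 lower with DCs. Klf2 was at 6.80 CPM in cells with Tbx21 and 15.1 CPM in cells without it with MDSCs, and at 9.91 and 28.7 CPM with DCs. Tbx21 was above 0 in 49.9% of cells with Il2 and 49.3% of cells without it with MDSCs, and in 45.5% and 41.0% with DCs. For Eomes these shares were 19.5% and 33.8% with MDSCs, and 16.9% and 31.2% with DCs.

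At 72 h cells with Id2 had less Tcf7, the gene of a factor that maintains naive and memory T cells. Tcf7 was at 54.1 CPM in cells with Id2 and 82.6 CPM in cells without it with MDSCs, and at 65.0 and 125 CPM with DCs. Cells with Prdm1 were alike in this, with Tcf7 at 44.9 CPM in cells with Prdm1 and 69.0 CPM in cells without it with MDSCs, and at 41.0 and 84.1 CPM with DCs. Cells with Id2 also had more genes above 0 than cells without it, with medians of 3219 and 2993 with MDSCs and 3340 and 2744 with DCs. The part of that difference in the Tcf7 values was not tested.

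Zeb2 before stimulation was held by a small set of cells. Of 51 cells with Zeb2 at 0 h, 48 also had Id2. The odds ratio was 49.1, and 40.7 within bands, but 18.9 without cells holding markers of another type and 14.6 at counts of 2 or more. For these last values 5.15 and 9.88 cells were expected to share the pair, under the minimum of 10 used for describing pairs. Runx3 was above 0 in 88.2% of them against 56.8% of cells without Zeb2. Cells with Ccl5 above 0 held 98.5% of the Zeb2 level, 75.0% of the Tbx21 level and 30.6% of the Eomes level at 0 h. Ccl5 was at 18222 CPM in cells with Zeb2 and 459 CPM in cells without it, and S100a4 at 280 and 7.92 CPM. Cells with Mki67 above 0, 108 of the 2952, held 80.8% of the Zeb2 level. Of these 108 cells, 100 had a Mki67 value of 1. At 0 h Il2ra likewise had a value of 1 in 2795 of the 2799 cells above 0. What such values of 1 stand for is unknown, so no proliferation is read from them.

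Markers of natural killer and innate-like cells moved with Zeb2 at 0 h. Of 44 cells with 2 or more of these markers, of which 5 of 8 were in the table (Klrb1c, Fcer1g, Klre1, Klra7, Tyrobp), 29 had Zeb2, 43 had Id2, 9 had Tbx21 and 0 had Eomes, and they held 66.9% of the Zeb2 level. The summed level of the markers was 5.97 CPM at 24 h with DCs and 18.4 CPM at 0 h, none of the 5 was at 0 in either library, and their part in the Zeb2 values was not tested. Only 2 of the 51 cells with Zeb2 at 0 h were without Ccl5, so a ratio without the cells that had Ccl5 is not read for Zeb2. Without cells holding 2 or more markers of another type the log2 ratio of 24 h with DCs over 0 h was 0.80 for Zeb2, against -0.63 with all cells. Zeb2 was under 10 CPM in both libraries, and those marker cells held most of its level at 0 h, so neither direction is taken as a result.

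The genes whose levels over the 5 libraries were most like each member were taken from 7625 genes by the distance between centred log2(CPM + 1) profiles, as a description over 5 points. They were E130012A19Rik, Dhrs13 and Dusp5 for Tbx21 (distance 0.55 to 0.64), Kti12, Yrdc and Nfkbib for Eomes (0.21 to 0.24) and Sun1, Bcl9 and Tom1 for Id2 (0.22 to 0.24). For Runx3 they were Hdac7, Sigirr and Asap1 (0.12 to 0.23), for Prdm1 Mxi1, Ikbip and Selm (0.40 to 0.49) and for Zeb2 Rgs2, Cd69 and Galnt10 (0.43 to 0.59). Hdac7, the nearest to Runx3, was at 57.7 CPM at 0 h, 49.6 CPM at 24 h with MDSCs, 47.7 CPM at 24 h with DCs, 46.5 CPM at 72 h with MDSCs and 105 CPM at 72 h with DCs.

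Likeness from cell to cell picked other genes. The highest mean within-library correlation of natural log values over the 4 stimulated libraries, among 7790 genes, was 0.19 with Gzmb for Eomes, 0.15 with Lgals1 for Id2, 0.12 with Irf8 for Tbx21, 0.12 with Ccl5 for Zeb2, 0.08 with Malat1 for Runx3 and 0.07 with Gzmb for Prdm1. For Eomes and Gzmb the correlation was 0.28 at 24 h with MDSCs and 0.39 at 24 h with DCs (2247 and 1562 cells), and 0.02 at 72 h with MDSCs and 0.09 at 72 h with DCs (4942 and 1926 cells). Cells of a library share its depth adjustment, and values this weak in sparse counts are no finding.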

How the data were processed

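Per the labels' protocols, FACS-enriched OT-I CD8+ T cells were run on the 10X Genomics platform. The submitters' processing notes list Cell Ranger 2.0.1, Seurat (no version) and the mm10 build. The authors deposited 3 tables (all time points, 24 h, 72 h) of natural log values, in which every value above 0 is the natural log of a whole number plus 1, and an annotation giving each cell's library. The adjustment of these numbers is not described in the sources used here. Totals per cell varied little (coefficient of variation 4.95%), so they are not molecule counts, and depth could not be recovered. Doublets were not treated, and neither a count model nor thinning of cells was used.

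The whole numbers were recovered by exponentiation and added up for each gene and library, and levels are per 1000000 (CPM). Calls used 1.5-fold at 10 CPM or more in either library over all genes, without a test, since each group is 1 library. No counting interval was put on levels or ratios. Shares have exact (Clopper-Pearson) 95% intervals for counting error only. Odds ratios within 3 bands of genes above 0 are Mantel-Haenszel estimates. Positions are from GENCODE M21 (GRCm38), and promoters from RefSeq. The rule was checked on simulated data with 3-fold changes and counting error only. That check does not cover 1.5-fold changes or variation between libraries. The 6 genes, all lists and tests were chosen with earlier results of these data known. Besides the members, named genes were, at 10 CPM or more, the 2 genes per list, comparison and direction with the largest ratio, fixed genes of cells with and without a member, and the 3 most alike by profile or by cell. The marker genes named one by one were chosen after their values were seen. Python 3.11.15, numpy 2.4.6, scipy 1.17.1, pandas 2.3.3 and matplotlib 3.10.9 were used. The alternatives were equal weight per cell, mean natural log values, centring, a total without ribosomal and mitochondrial genes, other minimum levels and folds, the tables of single time points and fewer cells. Chosen after seeing the data were the split by Mki67, ratios by those bands, and the omission of cells with Ccl5.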

Additional observations from a re-analysis of the deposited data

Results flagged for a closer look

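From 24 h to 72 h the log2 ratio of cells with MDSCs over cells with DCs moved downwards for each of the 3 members with 10 CPM or more in either library at both times. At 72 h Tbx21 reached that minimum only with DCs, at 13.2 CPM against 5.89 CPM with MDSCs. Tbx21 had ratios of 0.34 at 24 h and -1.17 at 72 h, a difference of -1.51. For Id2 they were -0.13 and -1.41, a difference of -1.29, and for Runx3 0.09 and -1.04, a difference of -1.13. The same differences separate the time courses, since they are made of the same 4 libraries: from 24 h to 72 h the log2 ratio of Tbx21 was -3.24 with MDSCs and -1.72 with DCs, that of Id2 -0.10 with MDSCs and 1.18 with DCs, and that of Runx3 -0.11 with MDSCs and 1.02 with DCs. Eomes, under the minimum at 72 h, had a difference of 0.06. For all genes tested the median log2 ratio of cells with MDSCs over cells with DCs was 0.09 at 24 h and -0.07 at 72 h. The share of all genes whose ratio moved downwards was not counted, so the shared direction is not read as particular to the members.

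Tbx21 and Runx3 between co-cultures, and Id2 and Runx3 over time, drew notice because their ratios lay on opposite sides of 0. For Runx3 and Id2 that rests on small ratios whose sign depended on the processing. The ratio of Runx3 at 24 h was -0.08 in the deposited table of 24 h, -0.02 with a total without ribosomal and mitochondrial genes and -0.0028 when centred on the median of all genes. Over time with MDSCs, with that total and with centring, Id2 was at 0.04 and 0.31, and Runx3 at 0.04 and 0.30. All of these were within 1.5-fold. With 1 library per group none of the differences was tested.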

How the results depend on the processing

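No paired analysis was possible because each group is 1 library with no replicate number, and for the same reason no replicate could be left out. Of 227 log2 ratios recomputed under the alternatives, 210 kept their direction or stayed within 1.5-fold, 10 passed 1.5-fold, 4 no longer did and 3 reversed. The 3 reversed were all Zeb2 at 24 h with DCs against 0 h (-0.63), which became 0.46 from mean natural log values, 0.80 without cells holding markers of another cell type and 4.78 without cells with Ccl5, a value that rests on 2 cells at 0 h and whose direction the choice of cells fixed, since cells with Ccl5 held 98.5% of the Zeb2 level at 0 h and 35.6% at 24 h. Of 84 counts of members called, 71 were unchanged, 6 differed by 1.5 times or less and 7 by more. Among the 6, with no minimum 3 were higher and 3 lower at 72 h against 24 h with DCs, 3 were lower over that time with MDSCs and 4 were lower at 72 h with MDSCs against DCs. The other changes within 1.5 times were 3 higher at 24 h with DCs against 0 h from mean natural log values, and 2 lower at 72 h between co-cultures at 50 CPM (13.2% of genes), where Tbx21 was no longer called. With a minimum of 50 CPM, 0 members were higher at 24 h with DCs against 0 h (44.9% of genes), 0 were lower at 72 h against 24 h with DCs (37.6%), and 1 was lower at 72 h against 24 h with MDSCs (45.3%). With no minimum, 2 were lower at 24 h with DCs against 0 h, 1 was higher at 72 h against 24 h with MDSCs, and 1 was higher at 72 h with MDSCs against DCs. With ratios centred on the median of all genes, 1 was lower at 24 h with DCs against 0 h, Runx3 at -1.04. The counts with no minimum, from mean natural log values and with centring were not set against a share of all genes. Id2 in that comparison passed 1.5-fold from mean natural log values (0.68) and without cells with Ccl5 (0.62). Of the percentages of cells 30 of 84 moved out of their intervals, 26 of them at counts of 2 or more in place of above 0, and of the odds ratios 30 of 147 changed side of 1 or moved by over 1.5 times, 23 of them at that threshold. The 3 calls at 72 h between co-cultures held under every alternative run at the 10 CPM minimum. The causes were not tested. The adjustment of the values by the authors limits every share and level, most of all at 0 h, and members under 10 CPM rest on few cells.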
